A study of Mus musculus with 8 samples.

Results

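The 10 genes examined here encode growth factors of blood cells, or a receptor for one, and were measured in primary lung fibroblasts (pFBs). They are *Csf1*, *Csf2*, *Csf3*, *Kitl*, *Il7*, *Il15*, *Il34*, *Tslp* and *Flt3l*, which encode secreted or membrane-bound ligands, and *Epor*, which encodes a receptor. The members were taken by gene symbol, and all 10 were found among the 54532 entries of the gene count table. HOMO mice carried human *IGFBP5*, a transgene knocked in with CRISPR/Cas9 and driven by the ubiquitous Ef1a1 promoter, in the homozygous state, and WT mice were wild type. All mice had a C57/black strain background and were female, and their age and number are not given in the sources used here. The cells were untreated, were grown from minced lung in medium with fetal bovine serum, and gave 4 libraries for each genotype, called WT1 to WT4 and HOMO1 to HOMO4. Each n below counts libraries. The study's text speaks of the HOMO libraries as coming from several mice, but which library came from which animal or culture is not given in the sources used here. The p-values measure the spread between these libraries, which may in part be technical. The human transgene was not analysed here, so the genotype labels were not checked by it.

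Fibroblasts and other stromal cells are a source of several of these factors in marrow and in tissues such as the lung. Csf1, Il34, Kitl and Flt3l bind receptor tyrosine kinases, whereas Csf2, Csf3, Il7, Il15, Tslp and erythropoietin act through receptor chains coupled to JAK kinases and STAT transcription factors. Macrophages depend on Csf1 or Il34, neutrophils on Csf3, mast cells and blood stem cells on Kitl, dendritic cells on Flt3l, and lymphocytes and natural killer cells on Il7 and Il15.

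The libraries held between 17236521 and 29028769 counts in WT and between 19009027 and 31987790 in HOMO, so that 3 counts, taken as the floor of detection, were worth 0.0908 to 0.172 CPM (counts scaled to a common library size after TMM normalization). Near-identical pairs were formed by WT1 with WT2, HOMO1 with HOMO2, and HOMO3 with HOMO4. Their biological coefficient of variation was 4.71 to 7.65%, against 30.0 to 56.4% for the other 9 pairs within a genotype. They still differed by more than counting noise, and all 8 libraries were kept. When each near-identical pair was summed, leaving 3 WT and 2 HOMO units, edgeR called 0 genes in the whole table, with 2057 at an unadjusted p under 0.05. Fibroblast markers summed to 12938 to 16625 CPM in WT and 14002 to 24383 CPM in HOMO, and all 10 genes had counts in every library, the fewest being 3 counts of *S100a4* in HOMO2. Of these, *Pdgfrb* and *Vim* were called lower in HOMO.

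With all 8 libraries, the gene for Csf1 was the most abundant member by far and fell in HOMO, by 2.63-fold, while the gene for Kitl rose by 5.09-fold. *Il7* fell and *Epor* rose, both from low levels. The call required an adjusted p under 0.05 in edgeR's quasi-likelihood test across 14150 genes and an absolute log2 fold change above 0.6. Of all genes tested, 12.1% were called, 5.94% higher and 6.18% lower in HOMO. Of the 10 members, 8 passed the filter on low counts and were tested, and 4 of them were called, 2 in each direction. The genotypes did not overlap for 6 of the 8, against 27.3% of all genes tested. The filter can be met by the libraries of either genotype alone. *Epor* passed it through HOMO, and *Il7* and *Tslp* through WT. For such genes a gap between the genotypes is in part favoured by the filter, as it is within the 27.3%. The median log2 fold change of the 8 was −1.22, and that of all tested genes was −0.04. *Csf2* and *Csf3* were outside the test.

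**Figure D1:**
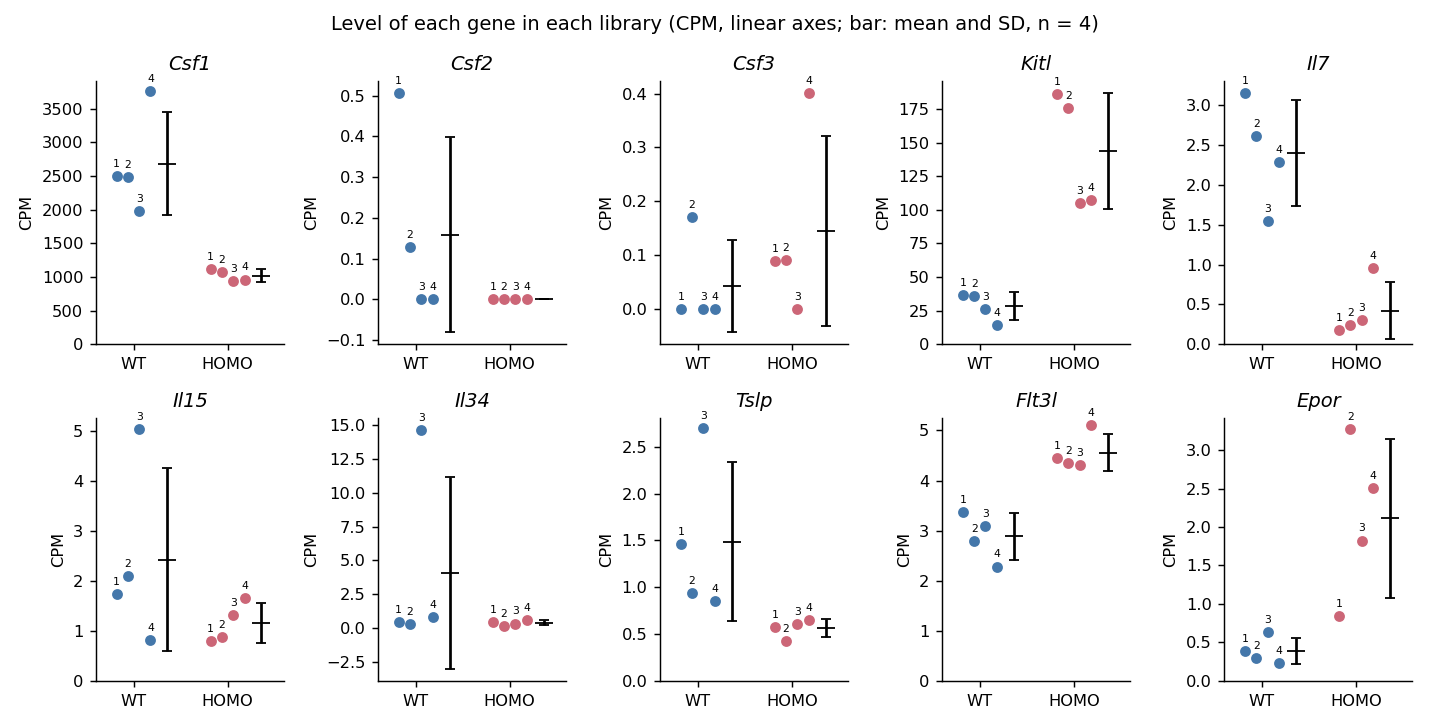
Each panel plots 1 gene, with CPM on a linear axis, a point for each library with its replicate number, and a bar for the mean and SD (n = 4). HOMO points lie below all WT points for *Csf1*, *Il7* and *Tslp* and above them for *Kitl*, *Flt3l* and *Epor*, while WT3 stands alone in *Il34* at 14.6 CPM.

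Levels of different genes were compared as CPM per kb of exon. In WT, *Csf1* reached 508 ± 144 CPM per kb (SD, n = 4), above 99.6% of the 14078 tested genes with a length, and *Kitl* followed at 4.78 ± 1.79 CPM per kb. The other 8 members had means of 0.0304 to 2.07 CPM per kb. In descending order of the mean these were *Il34*, *Tslp*, *Il15*, *Flt3l*, *Il7*, *Csf2*, *Epor* and *Csf3*. Neighbours in this order overlapped between libraries except *Csf1* with *Kitl* and *Flt3l* with *Il7*.

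In HOMO, *Csf1* was at 193 ± 16.9 CPM per kb and *Kitl* at 24.3 ± 7.33 CPM per kb, which moved *Kitl* from above 47.8% of the tested genes in WT to above 86.2% in HOMO. *Flt3l* and *Epor* came next at 1.18 ± 0.0966 and 1.06 ± 0.517 CPM per kb, and these overlapped. They were followed by *Il15*, *Tslp*, *Il34*, *Csf3*, *Il7* and *Csf2*. Apart from the steps from *Csf1* to *Kitl* and from *Kitl* to *Flt3l*, neighbours were separate only between *Tslp* and *Il34* and between *Il7* and *Csf2*, the latter at 0 counts throughout HOMO.

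**Figure D2:**
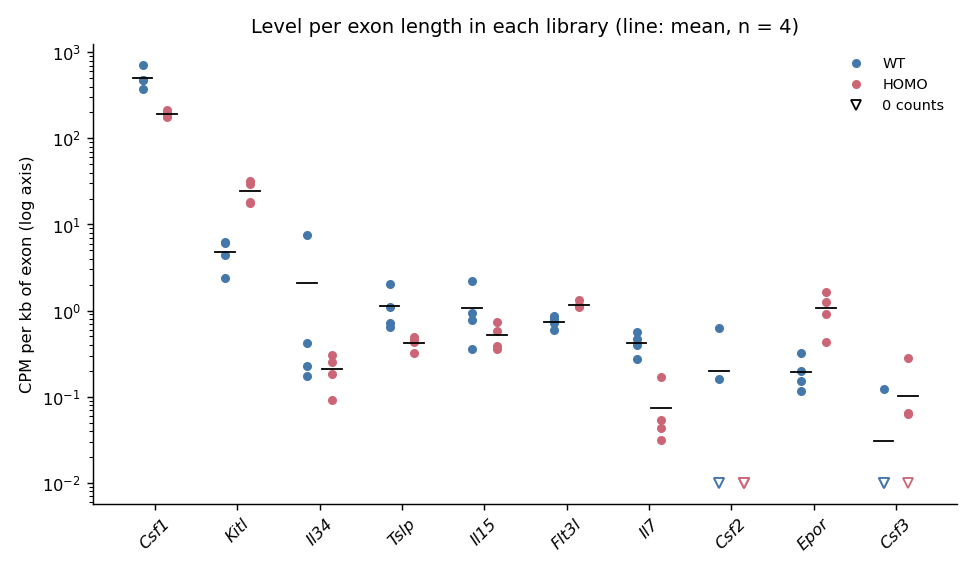
CPM per kb of exon is plotted on a log axis for each gene and library, with a line at the mean of each genotype (n = 4) and open triangles for libraries with 0 counts. *Csf1* lies highest in both genotypes, at means of 508 and 193, and *Epor* moves from 0.196 in WT to 1.06 in HOMO.

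Stretches upstream of *Csf1*, *Kitl* and *Epor* are shown because these genes were called. RefSeq windows of 250 bases before to 50 after a transcription start were at hand for 5 of the 10 members, these 3 with *Csf2* and *Flt3l*, on GRCm38.p6. The stretches printed end before the first annotated exon. For *Csf1* and *Epor* they are the 250 bases just before the RefSeq start, and for *Kitl* they are the first 59 bases of the window, far from that start, since another annotated transcript begins after them. Capitals mark matches, on either strand, to any of 6 motifs: the GC box GGGCGG, the TATA box TATAAA, the AP-1 site TGANTCA, the STAT site TTCNNNGAA, the GATA site AGATAA and the 10-base kappa B site.
*Csf1*, chr3:107760470-107760719, minus strand: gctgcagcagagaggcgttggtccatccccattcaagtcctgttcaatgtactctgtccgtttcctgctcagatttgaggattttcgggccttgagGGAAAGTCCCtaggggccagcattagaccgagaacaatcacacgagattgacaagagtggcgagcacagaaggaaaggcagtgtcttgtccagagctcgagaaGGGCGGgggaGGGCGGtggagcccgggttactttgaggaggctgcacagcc
*Kitl*, chr10:100015571-100015629, plus strand: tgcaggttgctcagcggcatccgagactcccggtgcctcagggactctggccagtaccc
*Epor*, chr9:21963577-21963826, minus strand: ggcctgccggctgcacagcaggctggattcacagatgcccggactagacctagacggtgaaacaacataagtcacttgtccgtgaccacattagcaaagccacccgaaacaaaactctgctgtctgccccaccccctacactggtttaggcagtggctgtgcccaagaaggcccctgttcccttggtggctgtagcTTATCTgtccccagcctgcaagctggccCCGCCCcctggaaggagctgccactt
The *Csf1* stretch held 1 kappa B match, at −154 from the start, and 2 GC boxes. The *Epor* stretch held 1 GATA match, at −54, and 1 GC box. The printed *Kitl* stretch held no match. Over the full windows, *Kitl* had 3 GC boxes and 1 TATA box in bases not printed. Of 27025 windows of the same length, 1.62% held a kappa B match, 11.4% a GATA match, 35.9% a GC box, 14.2% a TATA box, 7.93% an AP-1 match and 8.47% a STAT match. A match is a run of letters and not a shown binding site.

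*Csf1* encodes the main growth and survival factor of macrophages and lies on chromosome 3 from 107741048 to 107760469 (GRCm38, as are all positions of genes given here). Its 4 WT libraries held 2497, 2488, 1981 and 3766 CPM, and the 4 HOMO libraries held 1122, 1067, 932 and 961 CPM. Every HOMO library lay below every WT library, and the HOMO libraries were close together. The mean was 2683 ± 761 CPM in WT and 1020.3 ± 89.2 CPM in HOMO (SD, n = 4 each). This was a log2 fold change of −1.40 ± 0.22 (SE), or 2.63-fold lower in HOMO, with an adjusted p of 0.00789 in edgeR. Leaving out any 1 library gave −1.52 to −1.19 and kept the call in all 8 fits, and summing the near-identical pairs gave −1.42 with an adjusted p of 0.320.

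Macrophages, the cells that need Csf1, were followed through 10 markers, which include its receptor. These summed to 134, 163, 2014 and 1174 CPM in WT1 to WT4 and to 58.3, 62.4, 174 and 198 CPM in HOMO1 to HOMO4. The genotypes overlapped, and 0 of the 9 tested markers were called, with a median log2 fold change of −2.39. None of them was at 0 in every library. In bulk libraries, fewer cells of a type and less RNA per cell cannot be told apart. The part of macrophage RNA in the *Csf1* difference was not tested. *Csf1* itself was at 2497 and 2488 CPM in WT1 and WT2, where these markers were at their lowest within WT.

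*Il34* encodes the other ligand of the Csf1 receptor and lies on chromosome 8 from 110741829 to 110805924. Its WT libraries held 8, 8, 255 and 21 counts, and its HOMO libraries held 11, 6, 7 and 12 counts. WT3 was far above all others, and the other 3 WT libraries overlapped with HOMO. Its log2 fold change of −3.31 ± 1.27 (SE) had an adjusted p of 0.113 in edgeR and rested on WT3, since it was −0.43 without that library, with an adjusted p of 0.589. WT3 also had the highest sum of macrophage markers, 2014 CPM, and WT4, at 1174 CPM, held 21 counts of *Il34*. The median log2 fold change of the tested genes of chromosome 8 was 0.38, and 4.95% of the exon bases of *Il34* are shared with the antisense genes *Gm15894* and *Gm15895*.

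As a share of *Il34* plus *Csf1* transcripts per kb, *Il34* made up 0.0486, 0.0372, 1.95 and 0.0582% in WT1 to WT4 and 0.118, 0.0459, 0.103 and 0.169% in HOMO1 to HOMO4. The Wilson interval of WT3 was 1.73 to 2.20%, for counting error only. *Csf1* thus supplied nearly all ligand transcripts of this receptor in every library. The mean share was 0.524 ± 0.952% in WT and 0.109 ± 0.0505% in HOMO (SD, n = 4 each). In a two-sided exact permutation test the difference of −0.415 percentage points had a p of 0.943, where 0.0286 is the smallest p this design allows. Without WT3 the WT mean was 0.0480 ± 0.0105% (n = 3), below HOMO by 0.0607 percentage points.

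**Figure D3:**
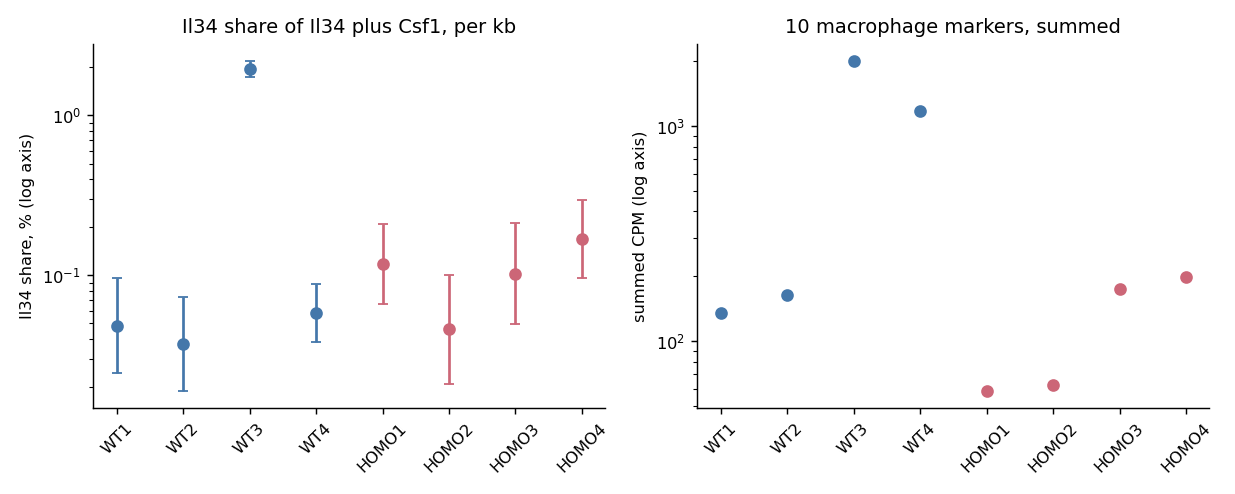
The left panel plots *Il34* as a percentage of *Il34* plus *Csf1* per kb in each library, on a log axis with 95% Wilson intervals, and the right panel plots the summed CPM of the 10 macrophage markers in the same libraries, also on a log axis. WT3 is highest in both, at 1.95% and 2014 CPM, while WT4 is second in the right panel at 1174 CPM and at 0.0582% in the left.

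*Csf2* encodes the granulocyte and macrophage factor on which alveolar macrophages depend, and *Csf3* the granulocyte factor that drives neutrophil output. Both lie on chromosome 11, *Csf2* from 54247271 to 54249667 and *Csf3* from 98701263 to 98703629. The WT libraries had 9, 3, 0 and 0 counts of *Csf2*, and every HOMO library had 0. For *Csf3* they had 0, 4, 0 and 0 counts, and the HOMO libraries had 2, 3, 0 and 8. The 12 counts of *Csf2* in WT came from 2 of the 4 libraries, and those of *Csf3* were spread over both genotypes. The exact permutation test of mean CPM gave p = 0.429 for *Csf2* and p = 0.371 for *Csf3* (two-sided, n = 4 each). When no gene was filtered out, edgeR gave *Csf2* an unadjusted p of 0.0327 and an adjusted p of 0.192, and *Csf3* an adjusted p of 0.493. Because 12% of the exon bases of *Csf2* are shared with the antisense gene *Gm12223* and the strand setting of the counting is not given, its few counts cannot be assigned to a strand.

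*Kitl* encodes stem cell factor, the ligand of the Kit receptor on mast cells, melanocytes and blood stem cells, and lies on chromosome 10 from 100015630 to 100100416. The 4 WT libraries held 36.7, 36.2, 25.9 and 14.2 CPM, and the 4 HOMO libraries held 187, 176, 105 and 108 CPM. All HOMO libraries exceeded all WT libraries, and HOMO1 and HOMO2 exceeded HOMO3 and HOMO4. The mean rose from 28.3 ± 10.6 CPM to 144 ± 43.4 CPM (SD, n = 4 each). On the log2 scale the rise was 2.35 ± 0.34 (SE), or 5.09-fold, with an adjusted p of 0.00579 in edgeR. The call was kept in all 8 fits that left out a library, at 2.13 to 2.50. Summing the near-identical pairs gave 2.50 with an adjusted p of 0.201.

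*Kit*, its receptor, was low in both genotypes at 0.996 ± 0.429 CPM in WT and 1.42 ± 0.151 CPM in HOMO, and was not called. Among 8 markers of mast cells and blood progenitors, 4 were tested and 3 were called in edgeR, beside 12.1% of all tested genes. *Cpa3*, a mast cell protease, fell by 4.06 on the log2 scale, to 0.0892 to 0.201 CPM in HOMO, and passed the filter on low counts through WT. *Gata2*, a transcription factor of mast cells and progenitors that stromal cells also express, fell by 0.72. *Cd34*, an adhesion protein of progenitors and of some fibroblasts, rose by 3.30. The list summed to 43.6 to 52.7 CPM in WT and 56.0 to 101 CPM in HOMO, and 1 of its genes had 0 counts in all libraries. The part of such cells in the *Kitl* difference was not tested.

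*Flt3l*, whose product expands dendritic cells and early progenitors, lies on chromosome 7 from 45129788 to 45136432. It held 3.38, 2.79, 3.10 and 2.28 CPM in WT1 to WT4 and 4.46, 4.36, 4.31 and 5.11 CPM in HOMO1 to HOMO4. The genotypes did not overlap, and the spread within each was small. The means were 2.89 ± 0.468 CPM and 4.56 ± 0.375 CPM (SD, n = 4 each). In edgeR this gave a log2 fold change of 0.66 ± 0.23 (SE) and an adjusted p of 0.0873, which did not pass. DESeq2 called it, with an adjusted p of 0.0332, as did limma-voom with sample weights, at 0.00361. The tested genes of chromosome 7 had a median log2 fold change of −0.29, and with such chromosome-wide shifts set as offsets *Flt3l* was called at 0.87, with an adjusted p of 0.0425. Of its exon bases, 22.1% are shared on the same strand with *Gm45713*, an entry at 0 counts in every library, and how reads there were assigned is not given in the sources used here. *Flt3*, the receptor, had a total of 1 count over the 8 libraries, in WT4.

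**Figure D4:**
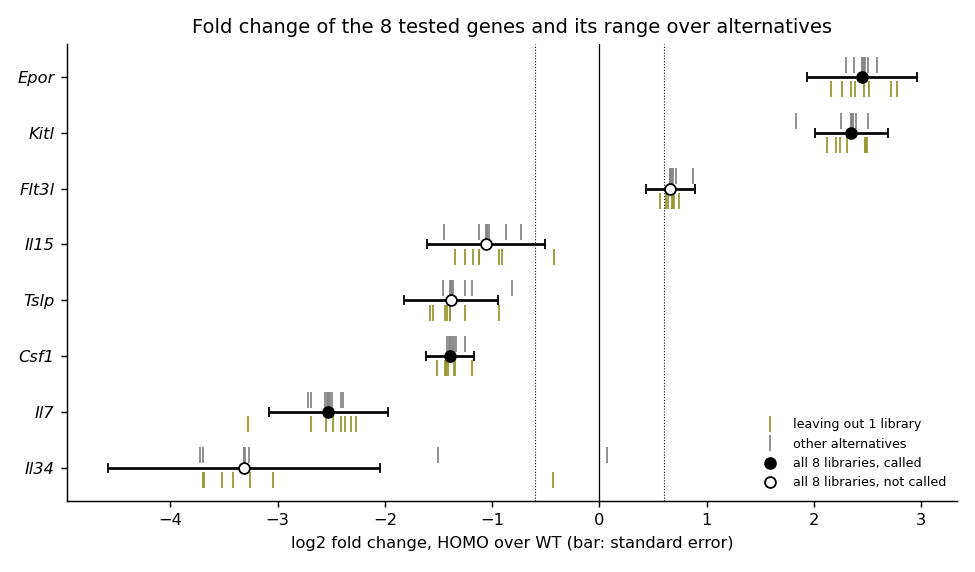
The log2 fold change of HOMO over WT is plotted for the 8 tested members, with a bar for the standard error, filled points for called genes, ticks above for other processing choices and ticks below for fits without 1 library. The dotted lines mark a log2 fold change of 0.6 in either direction. All members plotted except *Il34* keep their direction throughout, called or not, whereas the ticks of *Il34* run from −3.73 to 0.07.

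*Il7* encodes the stromal cytokine on which developing and resting lymphocytes depend, and lies on chromosome 3 from 7569994 to 7613760. Its WT libraries held 56, 61, 27 and 59 counts, and its HOMO libraries held 4, 8, 6 and 19 counts. Every HOMO library was below every WT library, also as CPM, where HOMO4, the highest in HOMO, was at 0.952 and WT3, the lowest in WT, at 1.55. The mean fell from 2.40 ± 0.670 CPM to 0.419 ± 0.359 CPM (SD, n = 4 each). The log2 fold change was −2.53 ± 0.55 (SE), or 5.76-fold lower in HOMO, with an adjusted p of 0.0230 in edgeR. The call was lost without HOMO1, HOMO2 or HOMO3, where the adjusted p was 0.0755, 0.0848 and 0.0642, at log2 fold changes of −2.27, −2.32 and −2.41. Without HOMO4, the highest of the HOMO libraries, *Il7* was 9.68-fold lower, with an adjusted p of 0.0117. Summing the near-identical pairs gave an adjusted p of 0.327. The median of the tested genes of chromosome 3, which also carries *Csf1*, was −0.23.

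*Il15* encodes a cytokine that sustains natural killer cells and memory T cells, and lies on chromosome 8 from 82331632 to 82403222. Its WT libraries held 31, 49, 88 and 21 counts, and its HOMO libraries held 18, 29, 26 and 33 counts. The genotypes overlapped, since WT4 at 0.813 CPM was below 3 of the HOMO libraries. The mean was 2.43 ± 1.83 CPM in WT and 1.16 ± 0.399 CPM in HOMO, and the log2 fold change of −1.06 ± 0.55 (SE) had an adjusted p of 0.219 in edgeR. It was −0.42 without WT3.

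*Tslp* encodes a cytokine of barrier and stromal cells that acts on dendritic cells and type 2 lymphoid cells, and lies on chromosome 18 from 32815383 to 32819797. Its WT libraries held 26, 22, 47 and 22 counts, and its HOMO libraries held 13, 14, 12 and 13 counts. All HOMO libraries lay below all WT libraries. The mean was 1.49 ± 0.849 CPM in WT and 0.566 ± 0.0993 CPM in HOMO (SD, n = 4 each). *Tslp* had a log2 fold change of −1.39 ± 0.44 (SE), with an adjusted p of 0.0699 in edgeR, and was not called. It passed the threshold in DESeq2, with an adjusted p of 0.0360, and in limma-voom with sample weights, at 0.0363. It also passed in edgeR without WT4, at 0.0493. The median of the tested genes of chromosome 18 was −0.31.

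*Epor* encodes the erythropoietin receptor, which is best known on red cell precursors, and lies on chromosome 9 from 21958897 to 21963506. Its WT libraries held 7, 7, 11 and 6 counts, and its HOMO libraries held 19, 108, 36 and 50 counts. Every HOMO library was above every WT library, with HOMO1 closest to WT at 0.847 CPM and HOMO2 highest at 3.27 CPM. The mean rose from 0.389 ± 0.174 CPM to 2.11 ± 1.03 CPM (SD, n = 4 each). The log2 fold change was 2.45 ± 0.51 (SE), or 5.46-fold, with an adjusted p of 0.0194 in edgeR. The call was lost without WT2, at 2.34 and an adjusted p of 0.0516, and without HOMO2, at 2.16 and an adjusted p of 0.0700. With near-identical pairs summed, the adjusted p was 0.273. *Epo*, the gene for its ligand, had 0 counts in all libraries. Of 9 genes of the red cell lineage, chosen after the data were seen, none exceeded 12 counts in a library, and their sum was 0.310 to 1.22 CPM.

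Of the 14 receptor chains for these ligands, which include *Epor*, 12 were tested and 2 were called, beside 12.1% of all tested genes. *Epor* was called upwards and *Il2rg* downwards. The median log2 fold change was −0.32. *Il2rg* encodes the gamma chain shared by the receptors for Il7 and Il15. It held 2.02, 1.76, 2.64 and 1.20 CPM in WT1 to WT4 and 0.0446, 0.0303, 0.304 and 0.451 CPM in HOMO1 to HOMO4, with no overlap. It passed the filter on low counts through WT. Its log2 fold change was −3.24 ± 0.73 (SE), with an adjusted p of 0.0254 in edgeR, and the call was lost without HOMO1, HOMO2 or HOMO3, where the adjusted p was 0.0801, 0.0671 and 0.0540.

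*Csf1r*, the macrophage receptor for Csf1 and Il34, held 10.8, 11.9, 40.4 and 44.5 CPM in WT1 to WT4 and 5.04, 5.32, 26.9 and 23.8 CPM in HOMO1 to HOMO4. It was high in WT3, WT4, HOMO3 and HOMO4 and low in the others, and its log2 fold change of −0.82 ± 0.70 (SE) had an adjusted p of 0.449. *Il7r* likewise held 5.22 and 3.48 CPM in WT3 and WT4 and at most 1.12 CPM elsewhere, with an adjusted p of 0.159. The lymphocyte markers, of which *Il7r* was the 1 tested gene, summed to 0.731 to 5.57 CPM in WT and 0.303 to 1.22 CPM in HOMO, and 6 of the 10 had at most 3 counts in any library. *Csf2ra*, which binds Csf2, was at 17.0 ± 9.95 CPM in WT and 33.7 ± 4.08 CPM in HOMO, without overlap, and had an adjusted p of 0.130. *Crlf2*, the Tslp receptor chain, was at 49.5 ± 21.3 and 34.8 ± 3.02 CPM, with an adjusted p of 0.218. The part of macrophage and lymphocyte RNA in the receptor levels was not tested.

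All 16 genes of the JAK-STAT list were tested. Of these, 3 were called, beside 12.1% of all tested genes called in either direction. All 3 were higher in HOMO, and the median log2 fold change of the list was 0.37. *Jak3*, the kinase that binds the gamma chain, held 15.7, 16.3, 13.2 and 14.8 CPM in WT1 to WT4 and 32.3, 36.9, 33.1 and 34.9 CPM in HOMO1 to HOMO4. The genotypes were far apart and each was tight. Its log2 fold change was 1.19 ± 0.13 (SE), with an adjusted p of 0.00227 in edgeR, opposite in direction to that of *Il2rg*. With chromosome offsets, *Jak3* was still called, at 0.79 and an adjusted p of 0.00812.

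*Socs3*, a feedback inhibitor of cytokine receptors, rose by 1.05 ± 0.22 on the log2 scale (SE), from 61.8 ± 13.6 CPM to 128 ± 28.2 CPM, with an adjusted p of 0.0188, which became 0.0677 without HOMO1 and 0.0690 without HOMO2. *Stat3*, a transcription factor downstream of many of these receptors, rose by 0.68 ± 0.17 (SE), from 292 ± 40.7 CPM to 468 ± 84.0 CPM, with an adjusted p of 0.0368. The call of *Stat3* was lost without WT1, WT2, HOMO1, HOMO2 or HOMO4, at adjusted p-values of 0.0584 to 0.118. *Stat5b* and *Tyk2* had adjusted p-values of 0.0372 and 0.0334 at log2 fold changes of 0.596 and 0.575, under the threshold of 0.6. *Jak2*, the kinase of the erythropoietin and Csf2 receptors, was at 98.0 ± 30.0 CPM in WT and 164 ± 18.2 CPM in HOMO, with an adjusted p of 0.0745.

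**Figure D5:**
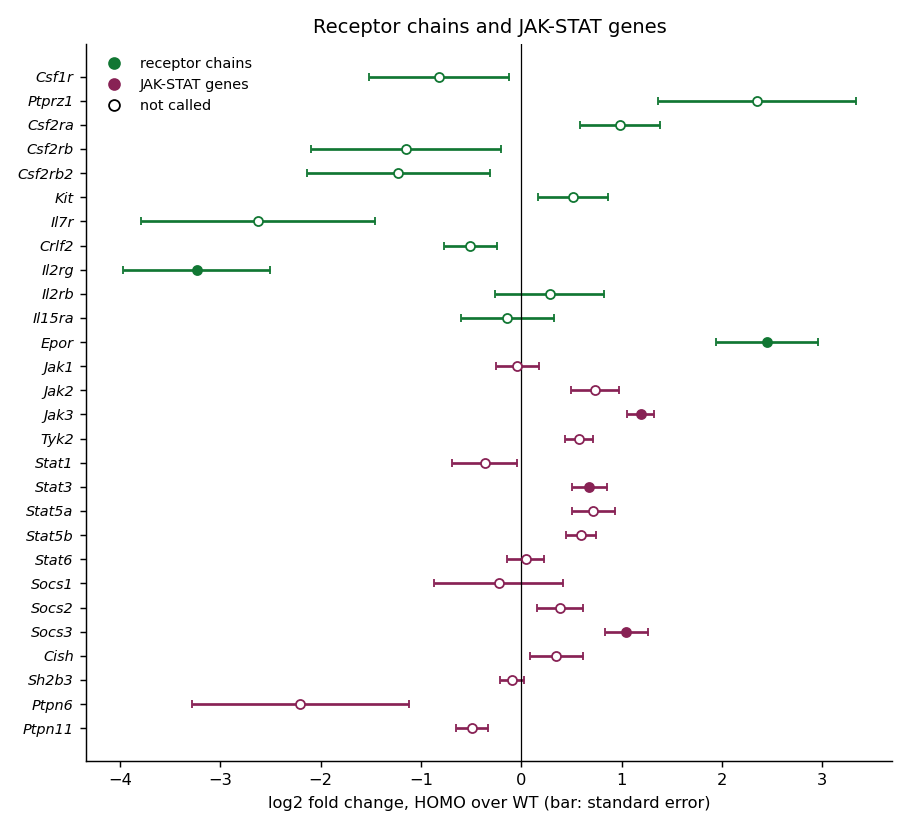
The log2 fold change of HOMO over WT is plotted for the 12 tested receptor chains and the 16 JAK-STAT genes, with a bar for the standard error and filled points for called genes. *Il2rg* and *Epor* are the filled receptor points, at −3.24 and 2.45, and *Jak3*, *Stat3* and *Socs3* the filled JAK-STAT points.

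Csf1, Kitl and Flt3l are made as membrane proteins that proteases can release. Of 7 genes of this shedding step, all tested, 2 were called, in opposite directions, beside 12.1% of all tested genes. The median log2 fold change of the 7 was 0.10. *Adam17*, a protease that releases all 3 ligands, rose by 0.77 ± 0.21 on the log2 scale (SE), from 47.7 ± 9.18 CPM to 81.5 ± 19.9 CPM, with an adjusted p of 0.0464 in edgeR. *Rhbdf2*, which carries Adam17 to the cell surface, fell by 1.02 ± 0.22 (SE), from 40.6 ± 11.7 CPM to 20.1 ± 2.15 CPM, with an adjusted p of 0.0231. Both calls were lost without WT2 and in each fit that left out 1 HOMO library, and that of *Adam17* was also lost without WT1 and with chromosome offsets, at an adjusted p of 0.154. *Adam10* was at 225 ± 35.3 CPM in WT and 241 ± 10.7 CPM in HOMO.

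Many cytokine mRNAs carry AU-rich elements, which shorten their life. The motif ATTTA occurred 9 times in the 320 bases of the annotated 3′ end of *Csf2*, or 28.1 times per kb, and 8.93 times per kb in *Csf3*, against a median of 1.31 per kb over 12635 tested genes. *Kitl* had 14 matches in 4438 bases and *Csf1* 4 in 2114, and *Flt3l* and *Epor* had 0. *Csf2* and *Csf3*, the members with the densest motifs, were at the floor of counting, as a description of 10 genes. The lowest mean of the 10 was that of *Csf3* in WT, at 0.0304 CPM per kb, and that of *Csf2* in HOMO, at 0. In WT, *Epor* was at 0.196 CPM per kb and *Csf2* at 0.198. In HOMO, *Il7*, with 1.56 matches per kb, was at 0.0740 CPM per kb and *Csf3* at 0.103. The part of these motifs in the levels was not tested. Of 10 genes for proteins that bind such mRNAs, all tested, edgeR called 0, with 2 at an unadjusted p under 0.05, beside 32.3% of all tested genes, and DESeq2 called 1, *Tia1*. Log2 fold changes were above 0 for 9 of the 10, and their median was 0.47. *Zfp36*, which speeds decay, held 33.6 to 34.9 CPM in WT, 24.8 and 24.6 CPM in HOMO1 and HOMO2, and 114 and 105 CPM in HOMO3 and HOMO4. The HOMO pairs thus lay on either side of WT, and the adjusted p was 0.226.

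Among 17 other genes for factors of blood and lymphoid cells, 7 were tested and 1 was called, beside 12.1% of all tested genes. The median log2 fold change of the 7 was −0.17. *Il6*, a cytokine of inflammation and blood cell formation, held 15.5, 13.6, 4.82 and 27.4 CPM in WT1 to WT4 and 1.47, 1.91, 2.48 and 1.75 CPM in HOMO1 to HOMO4. All HOMO libraries were below all WT libraries. Its log2 fold change was −3.01 ± 0.49 (SE), with an adjusted p of 0.00855 in edgeR, and it stayed called whichever library was left out. With near-identical pairs summed its adjusted p was 0.296. *Cxcl12*, the chemokine that holds blood stem cells in the marrow, was the highest of this list at 3993 ± 1457 CPM in WT and 4505 ± 45.9 CPM in HOMO, with an adjusted p of 0.677. *Lif* was at 44.4 ± 19.7 CPM and 90.6 ± 26.3 CPM, without overlap, with an adjusted p of 0.111. *Thpo*, for the platelet factor, was at 0.964 ± 0.328 and 1.40 ± 0.157 CPM, and *Il3* and *Il9* had 0 counts throughout.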

How the data were processed

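RNA of pFBs from WT and HOMO mice was sequenced (4 libraries each). The authors used fastp for trimming, STAR for alignment to mm10 and featureCounts for counting per gene, and the deposited counts are not normalized. The versions, annotation and strand setting are not given in the sources used here. The table's label, "outlierout", does not state whether a library was removed. Tools were edgeR 4.0.16, DESeq2 1.42.0 and limma 3.58.1 in R 4.3.3, and Python 3.11.15. The main test was edgeR's quasi-likelihood F test with TMM normalization and filterByExpr, with Benjamini-Hochberg adjustment over all tested genes. The study used DESeq2, which is an alternative here. Another alternative, limma-voom, was always run with sample weights, which count deviating libraries less. Standard errors were derived from the fold change and its F statistic. The fitting steps were tested on simulated data with independent libraries. These held no near-identical pairs, so that test gives no error rate for the data used here. Positions and exon lengths came from GENCODE M21 (53877 of 54532 entries matched), promoters from RefSeq. Members outside the test were compared by exact permutation over 70 assignments. The members and lists were chosen with earlier results of these data known. The genes named were all members, the called genes of each list with further genes where a list is described, the 3 genes most correlated with each tested member, and genes sharing exon bases. Part of what falls under this rule is not reported here. Settings for the lists were added after the data were seen. Intervals and floors cover counting error only.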

Additional observations from a re-analysis of the deposited data

Results flagged for a closer look

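Within each genotype, 22 groups of 4 values were searched for a library far from the others, and chance alone flags about 1 in 20 such groups. *Csf3* in WT2 stood apart at −1.94 log2 CPM, on 4 counts, with the other 3 WT libraries at −3.49 on 0 counts. With 3 libraries tied at 0, any count in the other meets this criterion, so it says nothing about WT2. The *Il34* share of *Il34* plus *Csf1* in WT3 stood apart at 1.95%, with the other WT libraries at 0.0372 to 0.0582%.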

How the results depend on the processing

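Of 20 alternatives, *Csf1* and *Kitl* kept their call in 19 and lost it when near-identical pairs were summed, a step that leaves 5 units. *Il7* was called in 14 of 20 and *Epor* in 14 of 19. The number of genes called, 1716, became 2913 with DESeq2, 3573 with limma-voom, 398 at an adjusted p under 0.01, 0 with pairs summed (2057 at an unadjusted p under 0.05) and 507 to 2192 without 1 library. Of the members, 7 were called with limma-voom, 2 at an adjusted p under 0.01, 0 with pairs summed and 2 to 5 without 1 library, the fewest without HOMO2. Summing pairs left 0 calls in the receptor, JAK-STAT, shedding and other factor lists. Without 1 library the calls numbered 0 to 3 for receptors, 1 to 5 for JAK-STAT genes, 0 to 2 for mRNA decay and 0 to 3 for shedding, and DESeq2 called 1 mRNA decay gene. *Il34* reversed to 0.0687 with limma-voom and its sample weights, and limma-voom without weights was not run. The difference in *Il34* share ran from −0.578 to 0.0607 without 1 library, reversed without WT3. The cause was not tested. The replicate numbers did not pair the libraries, since deviations of same-numbered libraries correlated at −0.124 to 0.014. With the number as a replicate block, 947 genes, 2 members (*Csf1* and *Kitl*), 1 mRNA decay gene and 0 shedding genes were called. DESeq2 gave *Il34* no p-value, and *Il34*, *Tslp* and *Epor* did not pass a filter of CPM above 1 in at least 4 libraries. Low counts limit *Csf2*, *Csf3*, *Epor*, *Il7*, *Il15*, *Il34* and *Tslp*.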

Other observations

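Several tested genes followed single members closely over the 8 libraries, as a description of log2 CPM in which the difference between genotypes is itself shared. They were picked as the highest correlations among all tested genes, over libraries that include near-identical pairs, and both favour high values. For *Csf1* the nearest were *Tns3*, *Pcgf5* and *Fndc3b*, with Pearson's r of 0.990 to 0.995, and for *Kitl* they were *Trmt1*, *Def6* and *Msl2*, at 0.993 to 0.994. *Il7* was followed by *Chmp4c*, *Dennd2a* and *1700010I14Rik*, all called lower in HOMO. *Flt3l* was nearest to *Zfp467* and *Gpt*, both called higher, and *Tcf12*. *Tslp* was nearest to *Avpi1*, *Psmc4* and *Usp18*, all called lower although *Tslp* was not. *Il15* and *Il34* went with *Prdx4*, *Slc38a4* and *Dkk3* and with *Erp29*, *Cox14* and *Chchd2*, none of them called. *Epor* went with *Zfp780b* and *Map1s*, neither of them called.

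*Epor* differed between HOMO1 and HOMO2, which form a near-identical pair. It had 19 counts in HOMO1 and 108 in HOMO2, a ratio of 3.86 after scaling (exact 95% interval 2.35 to 6.66). By the size of this ratio it ranked 2 of the 12797 tested genes with at least 50 summed counts in the pair. Genes outside the test were not ranked, and among them *Scgb1a1* differed more, with 3 counts in HOMO1 and 110 in HOMO2. *Csf1*, *Kitl* and *Flt3l* had ratios of 0.951, 0.943 and 0.977 between the same libraries. Beside *Epor* on chromosome 9, *Rgl3* was called higher in HOMO, at a log2 fold change of 1.18, and stood at 30.0 CPM in HOMO1 and 31.6 CPM in HOMO2. *Swsap1* was at 0.03 and was not called. Both were named after their values were seen.

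Markers of mesothelial cells, which line the lung surface, summed to 104 to 186 CPM in WT and 227 to 301 CPM in HOMO, and *Wt1* and *Bnc1* of the 6 were called higher, by 3.36 and 1.73 on the log2 scale. The median of the 6 was 0.16, with *Krt19* at −3.06 (adjusted p of 0.0856), *Msln* at −0.52, *Upk3b* at 0.09 and *Lrrn4* at 0.22, none of them called. Epithelial markers summed to 0.394 to 5.62 CPM in WT and 4.01 to 16.1 CPM in HOMO. Of these 8 markers 2 were tested, and *Cdh1*, which passed the filter on low counts through HOMO, was called higher. Different HOMO libraries made up the sum. *Scgb1a1* had 3, 110, 130 and 1 counts in HOMO1 to HOMO4, and *Krt8* had 1, 9, 5 and 96. The part of mesothelial and epithelial cells in the members' levels was not tested. Endothelial markers summed to 1.76 to 4.80 CPM in WT and 1.47 to 4.41 CPM in HOMO.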
